A study of Mus musculus with 3 samples.

Results

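The 34 genes described here are Trp53, which encodes p53, its direct inhibitors, a set of its transcriptional targets, and the Bcl2 family with Apaf1, Casp8 and Casp9. Members were the non-control spots of a mouse expression array whose gene name equals 1 of the 34 names. They were read by 45 of the 39429 probes, and 31 of the 34 genes were among the 15427 genes bright enough to test. Bcl2, Bik and Eda2r were too dim for a test. The samples were embryoid bodies, clumps of embryonic stem cells left to differentiate in low attachment plates, collected after 10 days without LIF, the cytokine that keeps such cells self-renewing. Of the 6 samples, 3 were Dido3deltaCT mutant, in which the Dido3 protein is truncated at its C-terminal end, and 3 were wildtype control (called wild type below). Each of 3 arrays carried 1 mutant and 1 wild type sample in different dyes, with the mutant in Cy3 on replicates 1 and 3 and in Cy5 on replicate 2. The comparison asks how these transcripts differ between the genotypes.

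p53 is a transcription factor that is kept low by Mdm2 and Mdm4 and accumulates after DNA damage and other stress. It then raises genes that stop the cell cycle, repair DNA or start apoptosis. Apoptosis through mitochondria is set by the Bcl2 family: BH3-only proteins sense stress, Bax and Bak1 open the outer membrane, and Bcl2, Bcl2l1 and Mcl1 hold them back. Released cytochrome c then joins Apaf1 to activate Casp9, while Fas and other death receptors act through Casp8. Embryonic stem cells are known to be ready for apoptosis, and mitochondrial apoptosis also takes part when embryoid bodies form a cavity.

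On each array the Cy5 sample had the larger share of non-control spots well above background. On replicates 1 and 3 this was the wild type sample, with 74.4% against 62.3% and 63.3% against 46.5%. On replicate 2 it was the mutant sample, with 62.5% against 48.5%. Over all genes 32 were higher and 14 lower in the mutant in the limma fit at an adjusted p under 0.05, while median centring gave 4 and 3 and scaling between arrays gave 63 and 46. Keeping 7 spots of replicate 3 with extreme background in the correction gave 0 and 0 (limma, 1687 genes at an unadjusted p under 0.05). The main probe of Dido1, the targeted gene, gave log2 ratios of mutant over wild type of 1.57, 2.16 and 1.47 on the 3 arrays. Where the truncation begins is not given in the sources used here, so this probe does not check the genotypes. The Y-linked genes Ddx3y and Eif2s3y were called lower, with log2 ratios of -4.57 ± 0.28 and -6.17 ± 0.36 (SE moderated by limma, as below, n = 3 arrays, limma adjusted p = 0.0372 each). Genotype and such a difference between the cell lines cannot be told apart. Whether the replicates came from separate lines or from repeat cultures is not given in the sources used here, so p-values measure only the spread between these samples, which may be technical. In the authors' deposited value table, the column named for replicate 1 had r = 0.630 with that array's scanner values and 0.794 with those of replicate 3. The column named for replicate 3 had 0.726 with its array and 0.831 with replicate 1. Both arrays have the same dye orientation, and all values below come from the scanner files.

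Promoter windows of 300 bases, 250 before and 50 after an annotated start, were matched by symbol for 28 of the 34 members, in 42 windows from RefSeq (GRCm38.p6). They were searched for the p53 decamer, the palindromic unit that p53 binds as a pair; its pattern reads the same on both strands. At least 1 decamer was found in 12 of the 42 member windows (28.6%), in 11 genes, and in 8.36% of the 32851 windows of all genes. A pair of decamers with up to 13 bases between them was found in 1 member window, that of 1 annotated start of Cdkn1a, and in 0.0731% of all windows. Shown here, with decamers in capitals, are the windows of 4 well known p53 targets that hold one. They are Cdkn1a at chr17:29090729-29091028 on the plus strand, Mdm2 at chr10:117710709-117711008, Ccng1 at chr11:40755237-40755536 and Bax at chr7:45466849-45467148, the last 3 on the minus strand.
Cdkn1a: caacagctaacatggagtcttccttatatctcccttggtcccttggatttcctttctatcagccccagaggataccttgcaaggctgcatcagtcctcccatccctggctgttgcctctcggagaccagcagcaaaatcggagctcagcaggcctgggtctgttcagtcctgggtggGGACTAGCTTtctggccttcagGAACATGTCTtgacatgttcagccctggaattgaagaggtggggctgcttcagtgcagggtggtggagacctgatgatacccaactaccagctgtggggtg
Mdm2: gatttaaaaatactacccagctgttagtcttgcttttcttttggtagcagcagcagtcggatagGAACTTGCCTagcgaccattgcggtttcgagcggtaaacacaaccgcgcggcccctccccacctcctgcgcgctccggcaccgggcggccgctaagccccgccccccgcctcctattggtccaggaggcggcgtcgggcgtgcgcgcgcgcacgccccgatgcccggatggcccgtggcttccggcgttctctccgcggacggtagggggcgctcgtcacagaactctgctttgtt
Ccng1: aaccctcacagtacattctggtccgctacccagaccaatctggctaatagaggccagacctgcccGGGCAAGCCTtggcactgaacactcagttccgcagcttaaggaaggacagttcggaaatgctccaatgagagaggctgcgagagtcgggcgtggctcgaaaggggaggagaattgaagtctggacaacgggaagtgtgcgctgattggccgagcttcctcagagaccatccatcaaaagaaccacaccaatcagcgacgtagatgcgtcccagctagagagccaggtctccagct
Bax: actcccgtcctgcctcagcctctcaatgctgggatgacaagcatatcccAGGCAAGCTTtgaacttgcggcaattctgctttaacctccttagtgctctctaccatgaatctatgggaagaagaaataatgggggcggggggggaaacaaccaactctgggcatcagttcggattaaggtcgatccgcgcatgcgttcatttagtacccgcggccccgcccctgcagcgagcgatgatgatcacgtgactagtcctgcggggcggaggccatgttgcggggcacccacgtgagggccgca
The 2 decamers of Cdkn1a began 73 and 51 bases before the start, with 12 bases between them, and those of Mdm2, Ccng1 and Bax began 186, 185 and 201 bases before it. The other members with a decamer in a window were Trp53, Gtse1, Polk, Aen, Ei24, Sesn1 and Bmf. A match of letters is a description and not a bound site.

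Of the probes, 3 are printed because they read the regulator itself (Trp53) and 2 members whose signals did not overlap between the genotypes (Bcl2l11 and Casp8). They are read from the scanner files, with positions on mm9, all on the plus strand: Trp53 at chr11:69404204-69404263, Bcl2l11 at chr2:127972893-127983988, where the 60 bases lie on both sides of a gap, and Casp8 at chr1:58901601-58901660. Each reads without a stop codon in 2 of the 3 forward frames.
Trp53: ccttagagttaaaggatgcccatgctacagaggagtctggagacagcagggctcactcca
Bcl2l11: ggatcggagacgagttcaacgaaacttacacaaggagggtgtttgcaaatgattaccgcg
Casp8: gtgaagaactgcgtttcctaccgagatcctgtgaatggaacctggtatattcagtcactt

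No tested member passed the test over all genes (limma, adjusted p under 0.05): 0 of 31 were called higher, against 0.207% of all tested genes, and 0 of 31 lower, against 0.0907%. At an unadjusted p under 0.05, 4 members had a higher mean in the mutant (Pmaip1, Bid, Bax and Bcl2l11), and 1 a lower one (Casp8). These are 12.9% and 3.23% of the members, against 11.4% and 11.3% of all genes. The median of the 31 mean log2 ratios was 0.08, beside 0.03 over all tested genes, with 19 members above 0 and 12 below. A dye term changed these counts: 7 members were then called higher (Bax, Bcl2l11, Bid, Gtse1, Mdm4, Pmaip1 and Trp53inp1) and 3 lower (Bad, Bcl2l1 and Casp8). These are 22.6% and 9.68% of the members, against 16.2% and 15.3% of all genes (limma with a dye term). Its residual error comes from replicates 1 and 3 alone. Bcl2l11 and Casp8 were bright enough to test only through the genotype in which they are brighter. Their part in the counts of members here and below is therefore given as a description. Median centring moves the median of all genes to -0.22 and that of the members to -0.17, and it turns the sign of Polk, Perp, Ei24, Fas and Mcl1.

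**Figure D1:**
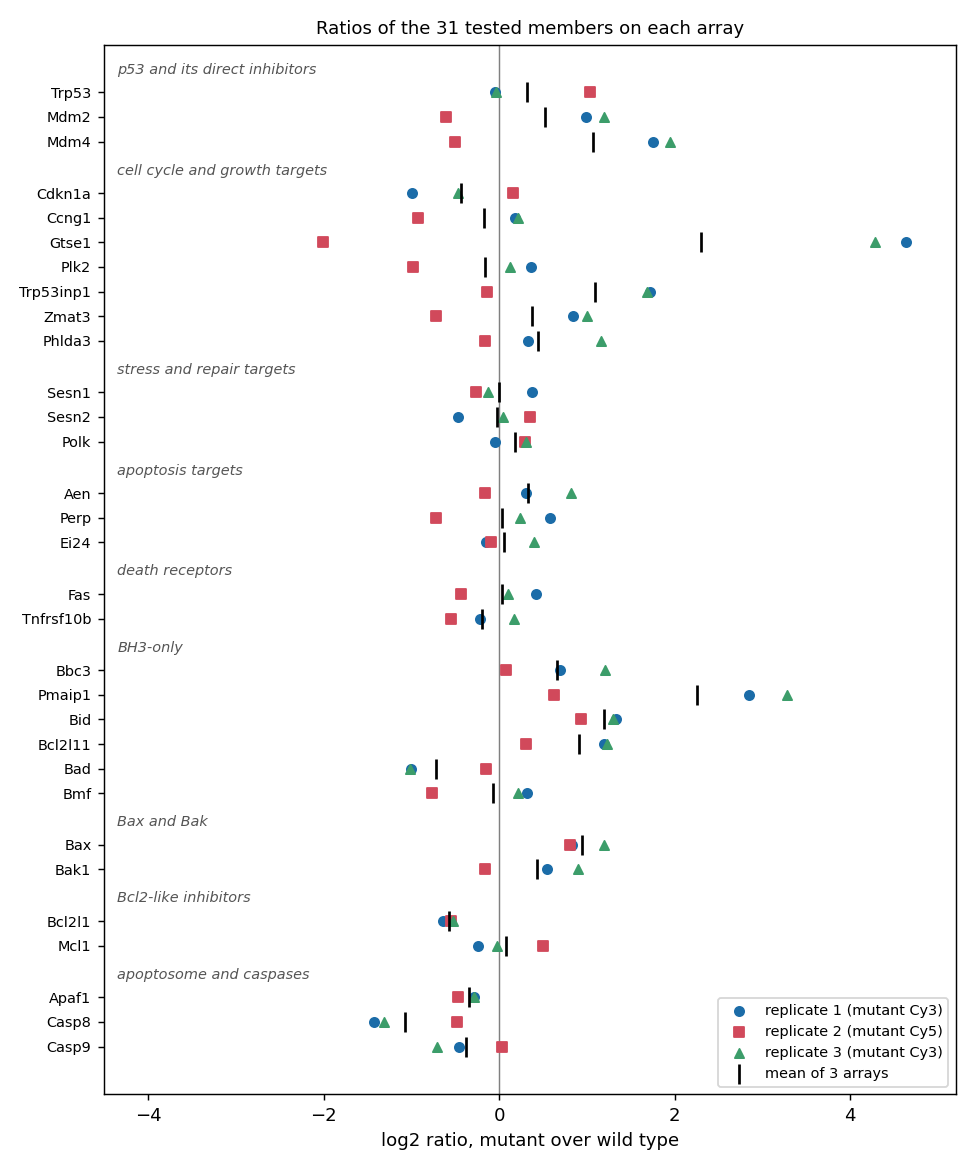
Log2 ratio of mutant over wild type (horizontal axis) for the 31 tested members (rows, by role), with 1 point per array and a black bar at the mean of the 3 arrays. Gtse1 spans the widest range, from -2.01 on replicate 2 to 4.63 on replicate 1, while the 3 points of Bcl2l1, Apaf1, Bid and Bax lie on 1 side of 0.

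The arrays differed within this set. The ratios of the 31 members had r = 0.963 for replicates 1 and 3. Replicate 2 had r = -0.25 with replicate 1 and -0.15 with replicate 3. These values are across genes, which are not independent replicates, and replicates 1 and 3 share a dye orientation. Over all genes the same values were 0.879, 0.151 and 0.180. On replicate 2 the sign was opposite to that of both other arrays in 17 of the 31 members (54.8%), against 39.9% of all genes. In those 17, which include Trp53, Mdm2, Mdm4, Cdkn1a and Gtse1, the Cy5 over Cy3 ratio therefore had 1 sign on all 3 arrays. The part of the dye in these values was not tested beyond the fit with a dye term. Ratios had 1 sign on all 3 arrays in 5 members with higher mutant values (Bbc3, Pmaip1, Bid, Bcl2l11 and Bax; 21.7% of all genes) and 4 with lower ones (Bad, Bcl2l1, Apaf1 and Casp8; 22.7%). The 5 and 4 are 16.1% and 12.9% of the 31 members, below those shares of all genes. All 9 are among the 13 tested members of the Bcl2 family, caspases and Apaf1, and 0 of the 18 tested members of the other roles had 1 sign on all arrays. The roles were not compared in a test. They do not part p53 targets from the rest, since the 13 also include p53 targets, Bax being an example and not the only one.

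**Figure D2:**
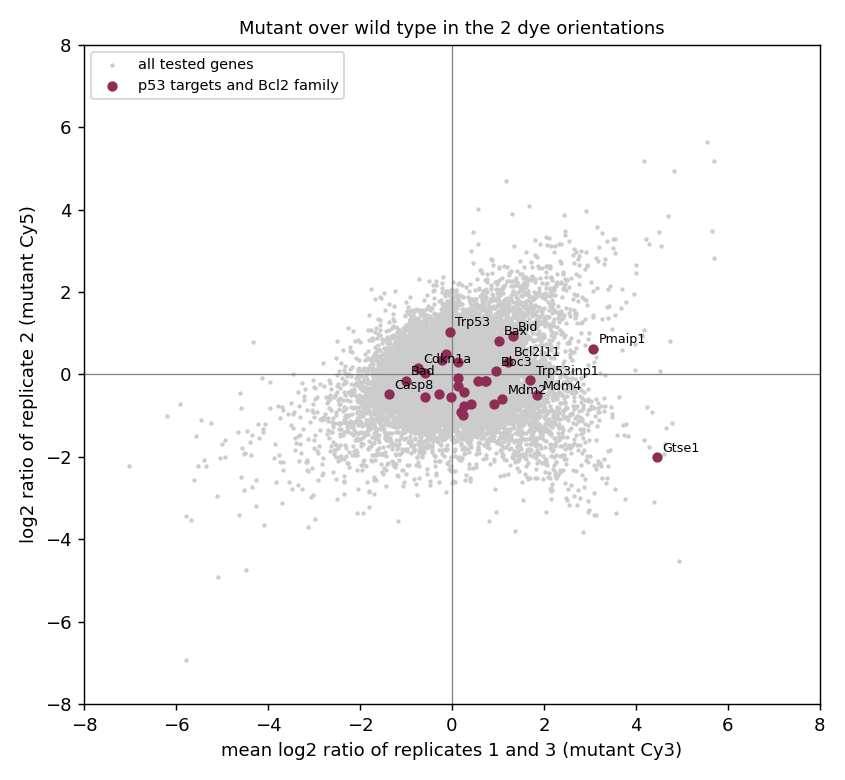
Mean log2 ratio of replicates 1 and 3, with the mutant in Cy3 (horizontal), against that of replicate 2, with the mutant in Cy5 (vertical), for all 15427 tested genes (grey) and the 31 members (purple). Bid and Bax lie in the upper right part and Casp8 in the lower left one, while Gtse1, Mdm4 and Mdm2 lie in the lower right one, where the orientations disagree.

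Trp53 itself had log2 ratios of -0.05 and -0.04 on replicates 1 and 3 and of 1.04 on replicate 2. Its normalized log2 signal was 8.26, 8.60 and 8.20 in the mutant samples of replicates 1, 2 and 3, against 8.31, 7.56 and 8.24 in the wild type samples. Replicate 2 alone stood apart, with the lowest wild type value and the highest mutant value, and the genotypes overlapped. The log2 ratio averaged 0.32 ± 0.32 (SE, n = 3; limma adjusted p = 0.600), and without replicate 2 it was -0.04.

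Mdm2, the ubiquitin ligase that degrades p53 and is itself a p53 target, had log2 signals of 13.64, 13.70 and 14.02 in the mutant, against 12.64, 14.31 and 12.83 in the wild type. The wild type sample of replicate 2 was the highest of the 6 and the other wild type samples the lowest, so the genotypes overlapped and the mean ratio was 0.52 ± 0.43 (SE, n = 3; limma adjusted p = 0.515). It was 0.24 with a dye term (limma adjusted p = 0.289), 1.09 without replicate 2 (limma adjusted p = 0.00674), 0.29 without replicate 1 and 0.19 without replicate 3. Mdm4, its relative that blocks the p53 activation domain, had ratios of the same signs. Its signals were 8.85, 8.13 and 9.25 in the mutant, against 7.09, 8.63 and 7.30 in the wild type. The ratio was 1.07 ± 0.55 (SE; limma adjusted p = 0.322), and 0.67 with a dye term (limma adjusted p = 0.0284). A second Mdm4 probe was too dim for the test and gave 0.32, 0.53 and -0.17.

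Cdkn1a encodes p21, an inhibitor of cyclin-dependent kinases and the standard readout of p53 activity. Its main probe, at chr17:29237377-29237436 on the plus strand of mm9, was spotted 10 times per array. The log2 signal was 10.58, 11.94 and 10.46 in the mutant, against 11.58, 11.79 and 10.93 in the wild type. Mutant samples were lower on replicates 1 and 3 and slightly higher on replicate 2, and the genotypes overlapped. The spots of an array agreed closely, with means of -0.995 ± 0.03 (SD, n = 9 spots), 0.15 ± 0.09 (n = 9) and -0.47 ± 0.08 (n = 10), so the spread between arrays was wider than that between spots. The mean over arrays was -0.44 ± 0.31 (SE, n = 3; limma adjusted p = 0.457), and without replicate 2 it was -0.73 (limma adjusted p = 0.0348). A probe of another transcript, at chr17:29227986-29228045, gave 0.01, 0.14 and 0.40, a mean of 0.18. It differed from the main probe by 1.01, -0.01 and 0.87 on the 3 arrays (mean 0.62 ± 0.55, SD, n = 3). A further Cdkn1a probe was too dim for the test and gave -0.34, 0.0005 and -0.18.

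Gtse1, which moves to the nucleus in G2 phase and restrains p53, had the widest spread of all members. Its log2 signal was 12.44, 8.09 and 11.49 in the mutant, against 7.81, 10.09 and 7.21 in the wild type. On each array the Cy3 sample was the brighter one, whichever genotype it was, and the genotypes overlapped. The ratios of 4.63, -2.01 and 4.28 averaged 2.30 ± 1.38 (SE; limma adjusted p = 0.384) and came to 1.23 with a dye term (limma adjusted p = 0.00662). Cdk1, a kinase of mitosis that is not a member, had the same pattern, with ratios of 5.12, -4.52 and 4.76.

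Trp53inp1, a p53-induced protein that promotes p53 phosphorylation and autophagy, had signals of 13.85, 12.49 and 13.19 in the mutant, against 12.13, 12.62 and 11.51 in the wild type. The mutant was higher on replicates 1 and 3, replicate 2 was nearly level, and the genotypes overlapped. The ratio averaged 1.09 ± 0.45 (SE, n = 3; limma adjusted p = 0.237), and 0.78 with a dye term (limma adjusted p = 0.0173). A second tested probe gave 0.69, 0.11 and 1.33. The remaining targets that act on growth had smaller mean ratios. They were Zmat3, an RNA-binding splicing regulator (0.38, range -0.71 to 1.00), Phlda3, an inhibitor of Akt (0.44, range -0.16 to 1.16), Ccng1, a cyclin that recruits a phosphatase to Mdm2 (-0.17, range -0.92 to 0.22), and Plk2, a kinase of centriole duplication (-0.16, range -0.98 to 0.36). In all 4, replicate 2 was below 0 and replicates 1 and 3 above it.

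The stress and repair targets lay close to 0. Sesn1 and Sesn2, which restrain mTORC1, averaged -0.004 (range -0.27 to 0.38) and -0.03 (range -0.47 to 0.35). Polk, a translesion DNA polymerase, averaged 0.18 (range -0.04 to 0.30). A second Polk probe, which passed the filter on dim probes only through the wild type, gave 0.11, -0.03 and -0.25, a mean of -0.06. Of the other targets linked to apoptosis, 2 likewise had means near 0. They were Perp, a desmosome protein (0.03, range -0.72 to 0.58), and Ei24, a membrane protein of the endoplasmic reticulum (0.05, range -0.15 to 0.40). Aen, a nuclease, averaged 0.33 (range -0.16 to 0.82), and its second tested probe gave 0.49, -0.64 and 0.90. Of the death receptors, Fas averaged 0.03 (range -0.43 to 0.42) and Tnfrsf10b, the mouse TRAIL receptor, -0.20 (range -0.54 to 0.17). Eda2r, a receptor of ectodysplasin A2, had 2 probes, both too dim. The lowest limma adjusted p among these 8 tested genes was 0.552, that of Aen.

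Among the members whose ratio had 1 sign on all arrays, the BH3-only genes Pmaip1 and Bid had the largest mean ratios. Pmaip1, which encodes Noxa, a partner of Mcl1, had log2 signals of 12.67, 12.35 and 13.15 in the mutant, against 9.81, 11.72 and 9.86 in the wild type. All mutant samples lay above all wild type samples, but the wild type sample of replicate 2 was much closer to them than the other wild type samples were. The ratios of 2.85, 0.62 and 3.28 averaged 2.25 ± 0.57, a 4.76-fold higher mean (SE, n = 3; limma adjusted p = 0.111), and 1.85 with a dye term (limma adjusted p = 0.00298).

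Bid, which is cut by caspase 8 and links death receptors to mitochondria, had signals of 10.47, 10.84 and 10.96 in the mutant, against 9.13, 9.91 and 9.66 in the wild type. The genotypes did not overlap and the arrays were close to each other, with ratios of 1.33, 0.93 and 1.30. The mean of 1.19 ± 0.24, or 2.28-fold, had the smallest p of the members (SE, n = 3; limma adjusted p = 0.0790). With a dye term it was 1.13 (limma adjusted p = 0.00667).

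Bcl2l11 encodes Bim, which binds all the Bcl2-like inhibitors. Its signals were 8.70, 7.59 and 8.68 in the mutant, against 7.50, 7.28 and 7.44 in the wild type, where 2 of the 3 arrays were above background. The genotypes did not overlap, but the mutant sample of replicate 2 lay just above the wild type ones. The ratio was 0.91 ± 0.30 (SE; limma adjusted p = 0.167), and 0.76 with a dye term (limma adjusted p = 0.0186). A second Bcl2l11 probe was too dim for the test and gave 0.06, -0.76 and 0.16. Bbc3, which encodes Puma, had signals of 11.69, 12.08 and 11.67 in the mutant, against 10.99, 12.00 and 10.46 in the wild type. It was higher in the mutant on each array, by very little on replicate 2, and the genotypes overlapped. The ratio was 0.66 ± 0.31 (SE; limma adjusted p = 0.284).

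Bad, a partner of Bcl2l1 that survival kinases hold inactive, was lower in the mutant on each array. Its signals were 9.38, 10.31 and 10.54 in the mutant, against 10.39, 10.46 and 11.55 in the wild type. The genotypes overlapped, because the arrays differed in level. The ratio was -0.72 ± 0.29 (SE, n = 3; limma adjusted p = 0.231), and -0.58 with a dye term (limma adjusted p = 0.0394). A second Bad probe averaged -0.60. It was above background on 1 mutant array and 3 wild type arrays and passed the filter on dim probes only through the wild type, so its value is given as a description. Bmf, which is released from the cytoskeleton, averaged -0.07 (range -0.76 to 0.32), and Bik was too dim. Signals of the 2 genotypes did not overlap in 3 members that were higher (Pmaip1, Bid and Bcl2l11; 11% of all genes) and in 1 that was lower (Casp8; 10.3%). Bcl2l11 and Casp8 passed the filter on dim probes only through the genotype in which they are brighter, so their separation, p-values and calls are given as a description.

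**Figure D3:**
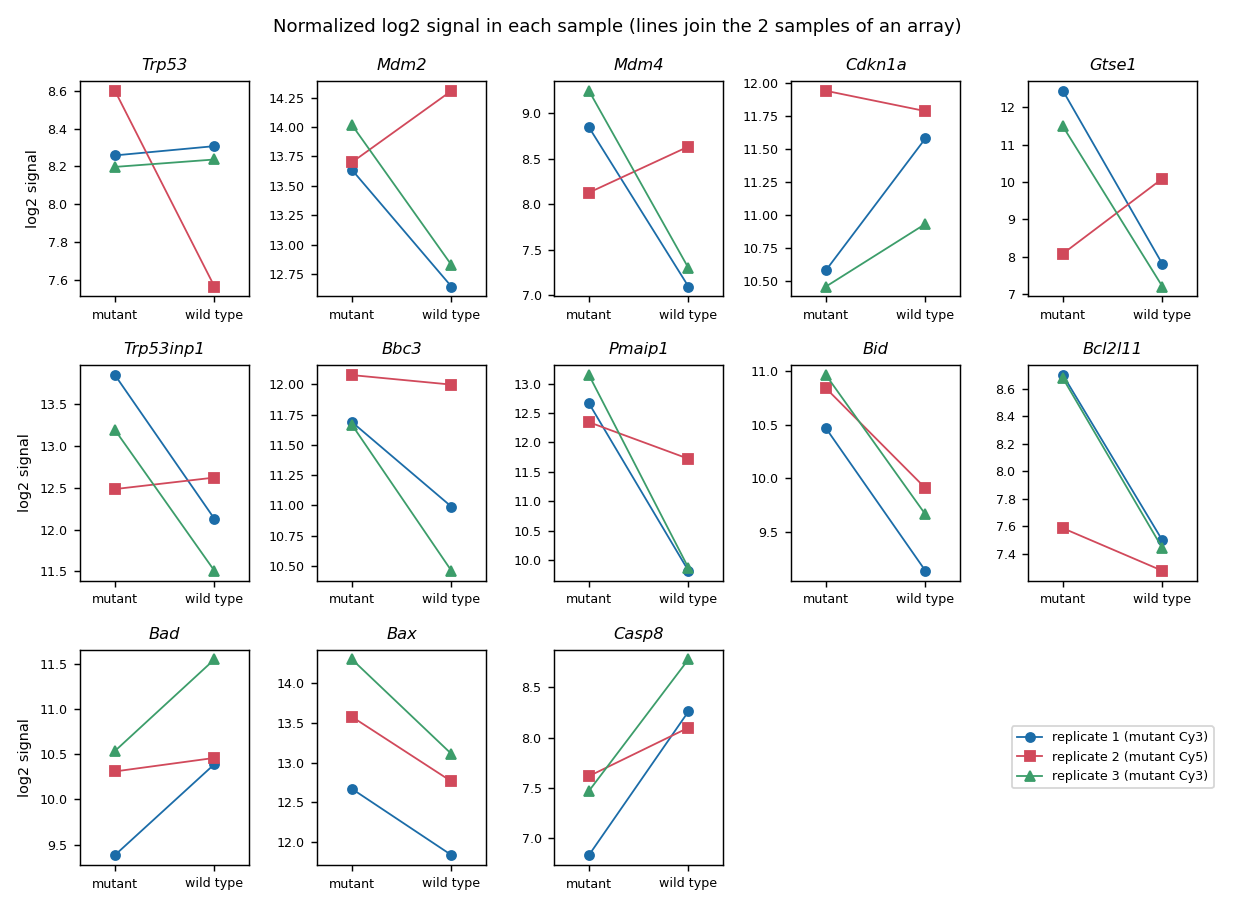
Normalized log2 signal (vertical axis, a separate scale per gene) in the mutant and wild type samples of the 13 members given in every sample, with lines joining the samples of an array. The lines of Pmaip1, Bid, Bcl2l11, Bbc3 and Bax all slope down from mutant to wild type and those of Bad and Casp8 all slope up, while the line of replicate 2 slopes the other way in Mdm2, Mdm4, Gtse1 and Trp53inp1.

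Bax, a pore-forming protein of the outer mitochondrial membrane and a p53 target, had log2 signals of 12.67, 13.58 and 14.30 in the mutant, against 11.83, 12.76 and 13.11 in the wild type. The genotypes overlapped across arrays, but within each array the mutant sample was higher, by 0.83, 0.81 and 1.19. The mean of 0.95 ± 0.24, or 1.93-fold, had a limma adjusted p of 0.114 (SE, n = 3), and with a dye term it was 0.91 (limma adjusted p = 0.0141). Bak1, its close relative, averaged 0.43 with a range of -0.16 to 0.90.

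Among the inhibitors, Bcl2l1, which encodes Bcl-xL, had the narrowest spread of all members, with ratios of -0.64, -0.55 and -0.53 (SD 0.06, n = 3). Its mean of -0.58 ± 0.23 had a limma adjusted p of 0.229, and -0.57 with a dye term one of 0.0424. The SE is wide beside that SD because limma's moderated SE also draws on the spread of all tested genes. A second Bcl2l1 probe, above background on no array, gave -0.18, 0.03 and -0.24. Bcl2 had 1 probe that was too dim, with ratios of -0.26, -0.15 and -0.84. Mcl1 was read by a pair of probes that gave different values. The brighter one, at chr3:95466855-95466914 on mm9, had ratios of -0.25, 0.50 and -0.03, a mean of 0.08. The other, at chr3:95465543-95465602, had signals of 14.45, 13.08 and 13.34 in the mutant, against 12.72, 12.35 and 11.44 in the wild type. All mutant samples lay above all wild type samples, and the ratios averaged 1.45 ± 0.29 (SE, n = 3, from the fit over all probes). The limma adjusted p was 0.141 in that fit and 0.0970 in the fit over the tested probes. The difference between the probes was 1.97, 0.23 and 1.92 on the 3 arrays, and the counts and medians given for the members use the brighter probe. With the other probe in its place, a choice made after seeing the data, the member median was 0.18 in place of 0.08, 5 members in place of 4 had a higher mean at an unadjusted p under 0.05, 6 in place of 5 were higher on all 3 arrays and 16 in place of 17 had the opposite sign on replicate 2 (limma, 0 members called).

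**Figure D4:**
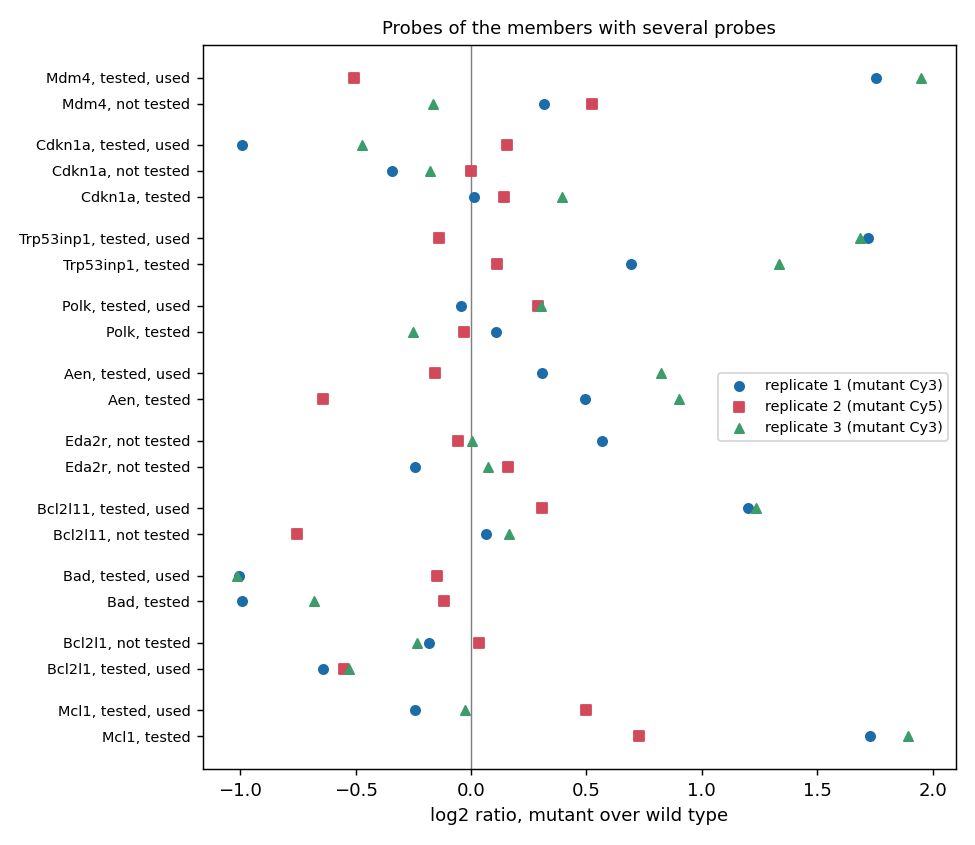
Log2 ratio of mutant over wild type on each array (horizontal axis) for every probe of the 10 members with more than 1 probe, labelled as tested or not and as used for the gene or not. The probes of Bad and of Aen lie close to each other, while those of Mcl1 are apart on replicates 1 and 3.

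Casp8, the initiator caspase of the death receptors, had log2 signals of 6.83, 7.62 and 7.47 in the mutant, where 2 of the 3 arrays were above background, against 8.26, 8.10 and 8.78 in the wild type. The mutant samples were all below the wild type ones, with the smallest gap on replicate 2. The ratios of -1.43, -0.48 and -1.31 averaged -1.07 ± 0.30 (SE, n = 3; limma adjusted p = 0.128), and -0.92 with a dye term (limma adjusted p = 0.0112). Without all mutant samples above background no fold is given, and the mean ran from -1.90 with Agilent processed signals to -0.62 in the authors' deposited value table. Apaf1, the scaffold of the apoptosome, averaged -0.35 with a narrow range of -0.47 to -0.28, and Casp9, the initiator caspase it activates, -0.38 with a range of -0.71 to 0.03. Their limma adjusted p-values were 0.434 and 0.459.

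Leaving out replicate 2, after which 11 members were called higher and 5 lower, against 25.9% and 21.9% of all genes (limma), leaves 1 dye orientation, in which genotype and dye cannot be told apart. The 11 were Bak1, Bax, Bbc3, Bcl2l11, Bid, Gtse1, Mdm2, Mdm4, Pmaip1, Trp53inp1 and Zmat3, and the 5 were Bad, Bcl2l1, Casp8, Casp9 and Cdkn1a. The means were then 4.46 for Gtse1, 1.85 for Mdm4, 1.70 for Trp53inp1 and 0.95 for Bbc3. Without replicate 1 and without replicate 3, 0 members were called, and 2 (Bid and Pmaip1) and 1 (Pmaip1) had a higher mutant mean at an unadjusted p under 0.05, against 5.04% and 4.44% of all genes (limma).

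Other genes of the pathway were read from 4 lists, and none of their tested genes passed the test over all genes, which called 0.207% of all genes higher and 0.0907% lower. The genes named from each list are those of smallest p, a choice that favours separated signals, so their separation is given as a description. Of 31 other p53 targets, 0 were called, and the median log2 ratio was 0.25. At an unadjusted p under 0.05 (limma), 5 had a higher and 1 a lower mean, against 11.4% and 11.3% of all genes. The gene with the lower mean passed the filter on dim probes only through the wild type, so it is given as a description. The smallest p belonged to Pml, the scaffold of nuclear bodies, with ratios of 1.68, 1.64 and 1.61 (limma adjusted p = 0.0560). Next were Tigar, a regulator of glycolysis, at 1.30 ± 0.31 (limma adjusted p = 0.103), and Ephx1, an epoxide hydrolase, at 1.08 ± 0.30 (SE, n = 3; limma adjusted p = 0.127). All mutant samples lay above the wild type samples in these 3, as they did in 11% of all genes.

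Of 20 regulators and relatives of p53, 0 were called, and the median was 0.18. At an unadjusted p under 0.05 (limma), 4 had a higher and 2 a lower mean, against 11.4% and 11.3% of all genes. The smallest p-values were those of Sirt1, a deacetylase of p53 (1.20 ± 0.30, limma adjusted p = 0.111), Trp73, the p53 relative p73 (0.84 ± 0.26, limma adjusted p = 0.151), and Cdkn2a, whose Arf product holds back Mdm2 (0.93 ± 0.30, limma adjusted p = 0.164). Signals of Sirt1 did not overlap between the genotypes, while those of Trp73 and Cdkn2a did. Trp73 passed the filter on dim probes only through the mutant, so its values and its place among the 4 are given as a description. Of 8 tested further members of the Bcl2 family, 0 were called, and the median was 0.42. At an unadjusted p under 0.05 (limma), 3 had a higher and 1 a lower mean, against the same shares of all genes. Bcl2l14 had ratios of 1.25, 1.91 and 1.80 (limma adjusted p = 0.0601), Bcl2l12 of -1.79, -0.93 and -1.62 (limma adjusted p = 0.0753) and Bok, a relative of Bax, of 1.03, 0.60 and 1.18 (limma adjusted p = 0.125). In each of these 3 the genotypes did not overlap, which held for 11% of all genes with the mutant above and 10.3% with it below.

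Of 23 caspases and their regulators, 0 were called, and the median was -0.20. At an unadjusted p under 0.05 (limma), 0 had a higher and 1 a lower mean, against 11.4% and 11.3% of all genes. The lower gene was Tradd, an adaptor of the tumour necrosis factor receptor, at -1.03 ± 0.30 (limma adjusted p = 0.138). Ripk1, a kinase of the same complex, gave -0.78 ± 0.31 (limma adjusted p = 0.226), and Xiap, an inhibitor of caspases, -0.61 ± 0.27 (SE, n = 3; limma adjusted p = 0.270). Tradd and Xiap signals were lower in every mutant sample than in every wild type sample, as in 10.3% of all genes, and those of Ripk1 overlapped.

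**Figure D5:**
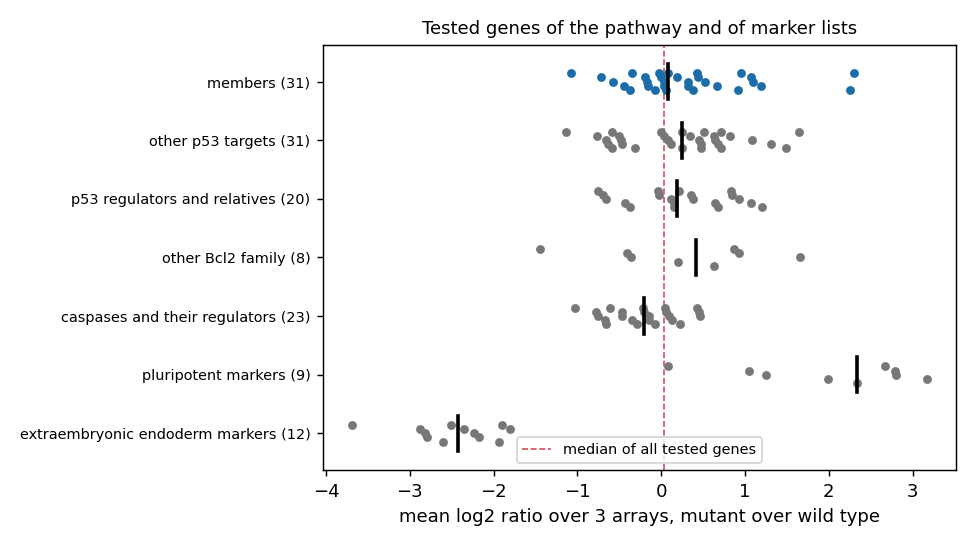
Mean log2 ratio of mutant over wild type over 3 arrays (horizontal axis), with 1 point per tested gene, for the members, the 4 pathway lists and 2 marker lists, with black bars at list medians and the median of all tested genes dashed. The members have a median of 0.08, while the pluripotent and extraembryonic endoderm markers have medians of 2.33 and -2.43.

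Transcripts that mark cell types differed in level between the genotypes. All 9 pluripotent markers had a mean ratio above 0, with a median of 2.33, and Zfp42, Dppa5a and Dppa2 were called higher (limma adjusted p = 0.0417 each). Nanog was near level, with ratios of 0.26, -0.30 and 0.27 and a mean of 0.08, and Tdgf1 was below 0 on replicate 2 (-0.21). The summed level of the 9 markers was 17.4 to 18.6 on the log2 scale in the mutant samples, against 15.1 to 16.0 in the wild type samples. All 12 extraembryonic endoderm markers had a mean ratio below 0, with a median of -2.43 and 0 called (limma, 12 lower at an unadjusted p under 0.05, against 11.3% of all genes). Their summed level was 14.2 to 16.8 in the mutant and 17.4 to 19.0 in the wild type. Of 8 mitotic genes 7 had a mean above 0, with a median of 0.48, and 0 were called (limma, 1 higher at an unadjusted p under 0.05, against 11.4% of all genes). Of the tested neural, cardiac and blood or endothelium markers, 5 of 6, 5 of 7 and 4 of 7 had a mean ratio below 0, with medians of -2.37, -0.43 and -0.61. Only Hbb-bh1 was called, with a log2 ratio of -3.91 (limma adjusted p = 0.0417). At an unadjusted p under 0.05 (limma), 3 genes of each list had a lower mean, against 11.3% of all genes. Myh6 and Gata1 had a higher one, against 11.4% of all genes. Of the markers in these lists, Zic1, Fabp7, Myh7, Tnnc1, Nkx2-5, Cdh5 and Hba-x, all lower, passed the filter on dim probes only through the wild type. Map2 and Pecam1 passed it only through the mutant. The filter thus bears on these counts and medians, which are given as a description. The summed neural level was 10.8 to 12.0 in the mutant, against 11.5 to 15.9 in the wild type, the cardiac one 11.7 to 11.8 against 11.3 to 12.6, and the blood or endothelium one 11.0 to 12.2 against 12.8 to 13.3. The markers are measured in the same bulk RNA, where fewer cells of a type and less RNA per cell cannot be told apart, and their part in the values of Pmaip1, Bid, Bax, Casp8 and the other members was not tested.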

How the data were processed

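RNA was extracted from embryoid bodies and amplified, per the labels' protocols, and 1 mutant and 1 wild type sample were hybridised together on each of 3 arrays. The deposited scanner files were written by Feature Extraction 10.7.3.1, per the file headers. They hold, per the file headers, the mean spot intensity and median background intensity of each dye, not normalized. Per the file headers, the processed intensity values are background-subtracted and dye-normalized, the log10 ratio is red over green from these, and other columns give flags and probe positions (mm9). The authors' deposited value table holds log2 ratios, and the submitters' processing notes name limma. The table's direction, set against the scanner files, is mutant over wild type; its columns have medians of -0.04, 0.01 and -0.01; its scale is log2, and its centring stays unknown.

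R 4.3.3 with limma 3.58.1 was used, and matplotlib 3.10.9 for figures. Signals were background-corrected by normexp (offset 50), and each array's ratios were normalized by loess, in which the 1377 control spots had weight 0. Outlier spots were left out (317, 364 and 440 per array), as were 7 spots of replicate 3 with a background above 10 times the array's median. Ratios run as mutant over wild type and are means over a probe's spots. A probe was tested if 1 genotype was above background on every array (19141 probes), with the brightest probe per gene. limma's lmFit and eBayes gave two-sided tests of the ratio against 0, adjusted by Benjamini-Hochberg over all 15427 genes at 0.05; the test was tried on simulated data first. Log2 signals per sample are the 2 channels after loess and Aquantile scaling, used to describe and not to compare genes. No member spot was saturated on any array. Each SE of a ratio is limma's moderated one, which draws on the spread of all genes in the fit and not on the gene's 3 ratios alone. Precision is limited by the 3 arrays.

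Each ratio pairs the samples of 1 array. In a check of this pairing, the genes' deviations in both channels had r = 0.515, 0.016 and 0.462. Members and lists were chosen with earlier results of these data known. All 34 members are named by role, with signals in every sample for Trp53, Cdkn1a, Mdm2 and members with a mean log2 ratio of at least 0.58 in size; the values of Bcl2l1 and both Mcl1 probes were added after they were seen, as were Cdk1, Ddx3y and Eif2s3y. From each list the 3 genes of smallest p are named. A reference table of GRCm38.p6 gave symbols for 26761 of the 39429 probes (67.9%) by accession. Exon and UTR positions of the probes were not used here. The alternatives were background correction, scaling, the dim-probe filter, probe averaging, outlier spots, a dye term, unpaired channels, the value table, the other Mcl1 probe and leaving out each replicate.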

Additional observations from a re-analysis of the deposited data

How the results depend on the processing

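The 3 arrays limit precision, and a single swapped array carries all information on dye. Over 16 alternatives, 1 of them (the other Mcl1 probe) chosen after seeing the data, the member median log2 ratio ranged from -0.17 to 0.26. Over all genes (reported: 32 higher, 14 lower), the calls were 97 and 64 with no background correction, 0 and 0 with extreme background spots kept (1687 genes at an unadjusted p under 0.05, limma), 282 and 185 with Agilent processed signals, 4 and 3 with median centring, 63 and 46 with scaling between arrays, 1 and 1 with no filter on dim probes, 3 and 1 with both channels above background, 67 and 36 with the mean over probes, 2502 and 2353 with a dye term, 178 and 96 with no replicate block, and 0 and 0 with the deposited value table (3057 at an unadjusted p under 0.05, limma). Leaving out 1 replicate each gave 3 to 3999 genes higher and 2 to 3382 lower; the upper ends are without replicate 2, and without replicates 1 and 3 the calls were 3 and 2, and 5 and 4. For the members (reported: 0 and 0) these ranges were 0 to 11 and 0 to 5, and a dye term gave 7 and 3; the other settings gave 0. The no replicate block fit, which ignores the pairing by array, called 0 members. Of the lists, the other p53 targets (reported: 0) had 1 call with the mean over probes, 11 with a dye term, 1 with no replicate block and 0 to 16 with 1 replicate left out. The p53 regulators had 7 with a dye term and 0 to 12 with 1 replicate left out, the other Bcl2 family 4 and 0 to 6, and the caspases 3 and 0 to 7. The other settings gave 0 list calls. Of 13 members tracked singly, only Trp53 changed sign; with 1 replicate left out it ranged from -0.0442 (without replicate 2) to 0.498 (without replicate 1). The cause of these differences was not tested; the error of the dye term fit, and of that without replicate 2, comes from replicates 1 and 3 alone. With the dim-probe filter at both channels, Bcl2l11 and Casp8 were not tested.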
